A study of Mus with 18 samples.

Results

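Excitation-contraction coupling is carried by a small set of muscle proteins, and 10 of their genes are described here: Cacna1s, Cacng1, Ryr1, Trdn, Casq1, Casq2, Atp2a1, Atp2a2, Sln and Pvalb. They were chosen by symbol, with earlier results of these data known, and all 10 were found among the 21401 gene symbols of each expression table. The study asked whether moringa isothiocyanate-1 (MIC-1), an isothiocyanate from Moringa oleifera seeds, alters the response of muscle to lipopolysaccharide (LPS), a bacterial cell wall component that triggers inflammation. RNA was sequenced from C2C12 cells, a mouse myoblast line, and from gastrocnemius muscle of wild-type male C57BL/6 mice, each with 3 control, 3 LPS and 3 LPS-MIC-1 libraries. The C2C12 libraries were labelled saline vehicle control, LPS (1 μg/mL), or LPS (1 μg/mL) with MIC-1 (10 μM), the last with a treatment time of 24 h. The study's text instead names ethanol as the vehicle of its cell assays and gives 24 h for cells with or without LPS. The control mice received vehicle, the LPS mice an intraperitoneal dose of 10 mg/kg, and the LPS-MIC-1 mice the same LPS dose after 3 days of MIC-1 at 80 mg/kg by gavage in 10% DMSO. Muscle was collected 16 h after LPS. No group received MIC-1 without LPS, and the age of the mice and whether a library holds 1 animal or a pool are not given in the sources used here.

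In a muscle fibre, the action potential runs down the transverse tubules and is sensed by the dihydropyridine receptor, a voltage-gated channel. Its pore and voltage sensor is encoded by Cacna1s and its gamma subunit by Cacng1. The sensor opens the ryanodine receptor (Ryr1), the calcium release channel of the sarcoplasmic reticulum. Triadin (Trdn) ties that channel to calsequestrin, the calcium buffer inside the store, which has a fast-fibre form (Casq1) and a form of slow and cardiac muscle (Casq2). Calcium is pumped back by SERCA, mainly SERCA1 (Atp2a1) in fast fibres and SERCA2 (Atp2a2) in slow fibres and the heart. Sarcolipin (Sln) is a small membrane protein that inhibits the pump, and parvalbumin (Pvalb) is a cytosolic calcium buffer of fast fibres that speeds relaxation.

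Values are FPKM, reads per gene scaled for transcript length and library depth, so levels of different genes can be set side by side within a table. The number of reads per library is unknown. From the smallest steps between low values, the C2C12 libraries had depths of 0.464 to 1.02 relative to control replicate 1, with LPS-MIC-1 replicate 3 the shallowest, and the muscle libraries 0.988 to 1.11. The C2C12 labels were set against marker genes. The summed FPKM of 10 myoblast markers was 1.08 to 1.52 in the libraries labelled control, 2.43 to 4.58 in those labelled LPS and 1109 to 1408 in those labelled LPS-MIC-1. The sum of 15 macrophage markers ran the other way, with 10329 to 10356, 7321 to 7508 and 80.4 to 281 in the same order. The 6 C2C12 libraries labelled control and LPS therefore held few transcripts of the line's defining markers, with Myf5, Msc and Vgll2 at 0 in all 6, and are named by their labels only. The gastrocnemius libraries carried all 10 fast-fibre markers, the lowest of them Myh1 at 77.7 to 82.0 FPKM in control. Macrophage markers there summed to 17.9 to 21.6 FPKM in control, 24.4 to 27.4 with LPS and 35.7, 32.6 and 193.6 in LPS-MIC-1 replicates 1, 2 and 3, so replicate 3 stands apart, and results that could rest on it are also given without it.

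In control gastrocnemius the fast-fibre forms were among the most abundant transcripts and the slow forms among the scarce ones. Pvalb ranked 7th of all genes, at 28437 ± 769 FPKM (mean ± SD, n = 3), Atp2a1 ranked 10th at 12912 ± 498 and Casq1 27th at 2544 ± 59.9. The junctional proteins followed, with Cacng1 at 411 ± 16.2, Trdn at 353 ± 13.5, Ryr1 at 232 ± 3.35 and Cacna1s at 137 ± 0.932 FPKM. Sln was at 5.03 ± 1.20, Casq2 at 3.57 ± 0.124 and Atp2a2 at 1.98 ± 0.242. No 2 neighbours in this order overlapped between libraries. In LPS muscle, Casq2 (3.93 ± 0.0892) stood above Sln (2.60 ± 0.453). In LPS-MIC-1 muscle the order at the low end was Sln, Atp2a2 and Casq2, and Cacng1 and Trdn overlapped. The 10 genes together took 6.13 ± 0.0431% of all FPKM in control, 5.56 ± 0.00338% with LPS and 5.91 ± 0.172% with LPS-MIC-1.

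**Figure D1:**
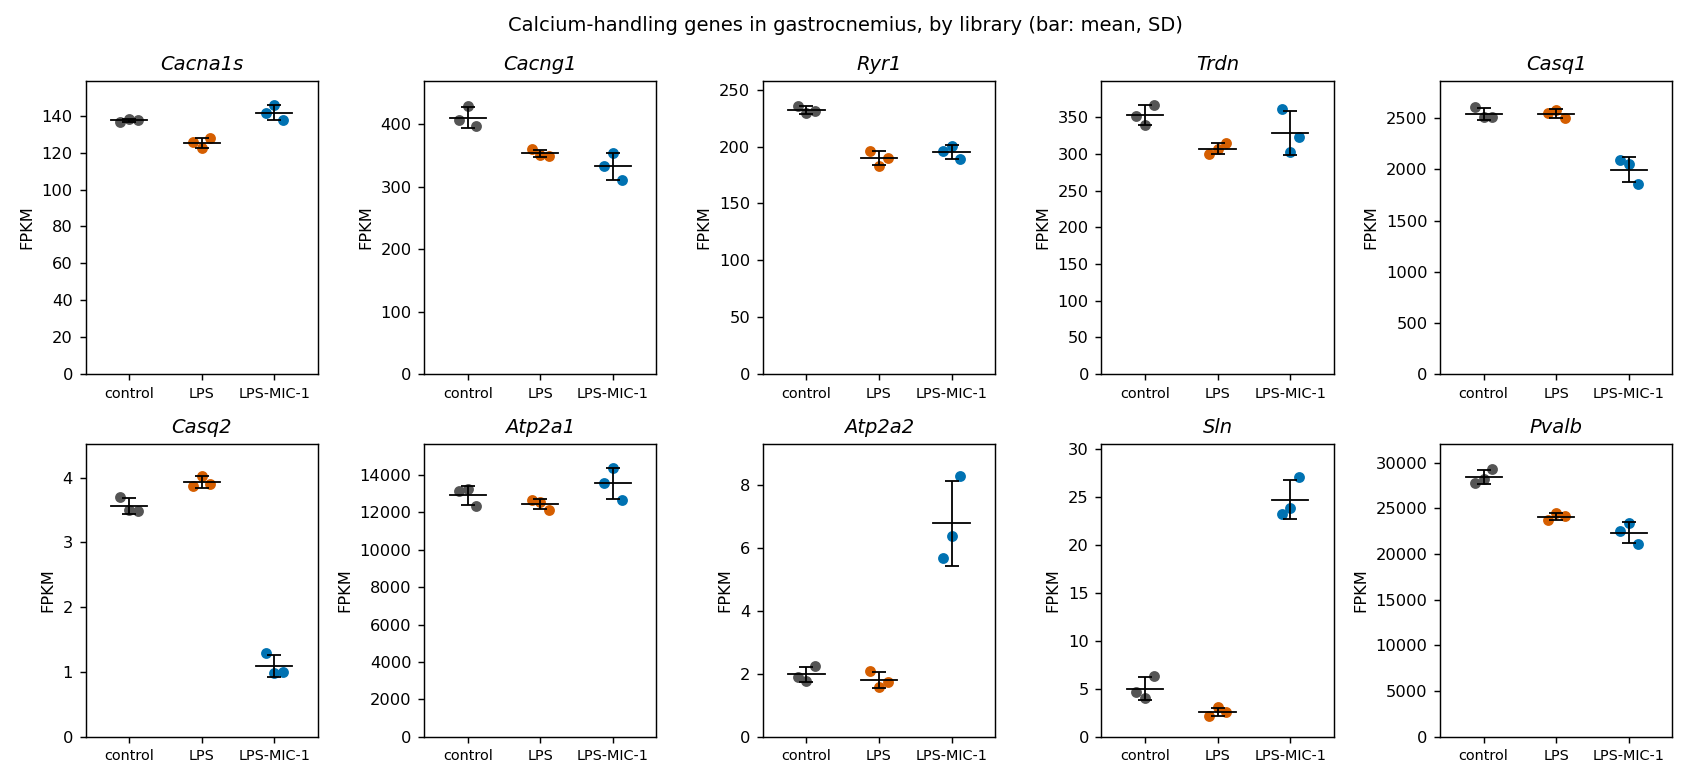
FPKM of the 10 calcium-handling genes in each gastrocnemius library (points), with group mean and SD (bars, n = 3), 1 panel per gene and a linear axis from 0. Sln and Atp2a2 were highest and Casq2 lowest in the 3 LPS-MIC-1 libraries, without overlap with the other groups, while Ryr1 and Pvalb were highest in control.

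Differences between LPS and control muscle were small in these genes except Sln, which was at 2.60 FPKM with LPS and 5.03 in control, without overlap. A gene was called where its log2 fold change exceeded 1 in size and its p, adjusted by the Benjamini-Hochberg method across every gene tested, was below 0.05 (limma on log2(FPKM + 0.1)). None of the 10 members was called for LPS against control, where 1.25% of the 9475 genes tested were called. By the adjusted p alone, at any fold change, 5 of the 10 were lower in LPS and none was higher (at an unadjusted p under 0.05, Trdn as well was lower), against 15.7% of all genes in either direction. The median log2 fold change was -0.17 over the members and 0.01 over all genes tested. Fewer cells of a type and less RNA per cell cannot be told apart in whole tissue.

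LPS-MIC-1 muscle differed from both other groups in 3 members. Sln and Atp2a2 were called higher and Casq2 lower, against LPS and against control alike, and these comparisons share the LPS-MIC-1 libraries. The background was 15.1% of all genes called against LPS and 15.5% against control. By the adjusted p alone, 3 members were higher and 3 lower than in LPS, and 2 higher and 5 lower than in control. Of all genes called against LPS 64.0% were higher, and 53.9% after quantile normalization. The counts by adjusted p, 6 and 7 of 10, are near the shares over all genes, 56.5% and 58.5%. Median log2 fold changes were 0.07 against LPS and -0.18 against control, beside -0.01 and 0.01 over all genes.

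**Figure D2:**
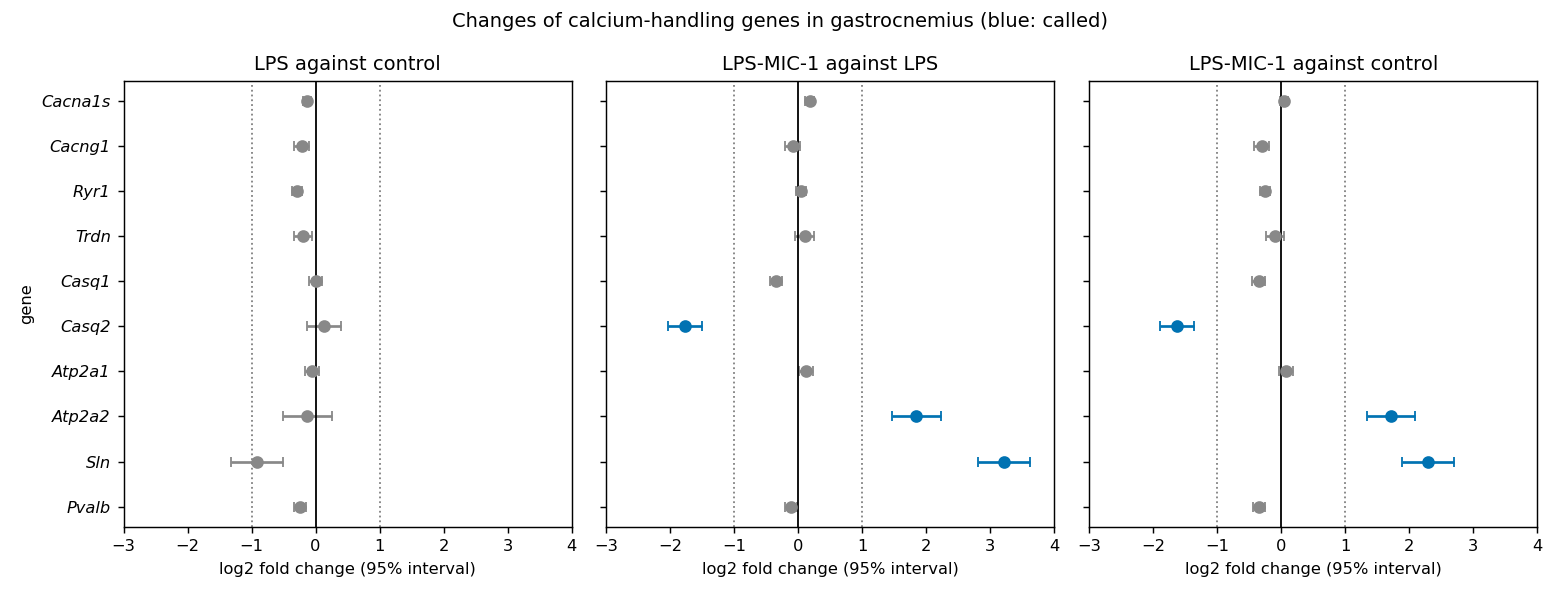
Log2 fold changes of the 10 genes in gastrocnemius with 95% intervals (limma, all 9 libraries), 1 panel per comparison, with dotted lines at the fold threshold and called genes in blue. Only Sln, Atp2a2 and Casq2 were called, in both comparisons of LPS-MIC-1, and the intervals of the other genes lie within the dotted lines except that of Sln for LPS against control.

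Of the 10 members, sarcolipin had the largest change. Sln was at 4.72, 4.01 and 6.35 FPKM in the control libraries, at 2.16, 3.07 and 2.57 with LPS and at 23.2, 23.9 and 27.0 with LPS-MIC-1. The 3 groups did not overlap, with LPS lowest and LPS-MIC-1 highest. Against LPS the log2 fold change was 3.21 (standard error, SE, 0.178, adjusted p = 1.51e-06), or 9.26-fold, and against control 2.30 (adjusted p = 1.07e-05). For LPS against control it was -0.91 (SE 0.178, adjusted p = 0.0110), past the adjusted p but just short of the fold threshold. Without LPS-MIC-1 replicate 3 the change against LPS was 3.14 (adjusted p = 1.72e-05). Without control replicate 2 the change for LPS against control was -1.06 (adjusted p = 0.01002) and without LPS replicate 2 it was -1.03 (adjusted p = 0.0147), and Sln was then called. Low FPKM make these folds depend on the added 0.1, which understates the change of scarce genes.

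Of the calcium pumps, the slow form rose and the fast form did not pass the test. Atp2a2 was at 1.90, 1.79 and 2.25 FPKM in control, 2.08, 1.59 and 1.75 with LPS and 5.67, 6.39 and 8.28 with LPS-MIC-1. Control and LPS libraries overlapped and every LPS-MIC-1 library was above them. The log2 fold change was 1.84 (SE 0.166, adjusted p = 2.80e-05) against LPS and 1.71 (adjusted p = 4.12e-05) against control. LPS-MIC-1 replicate 3, which held the most macrophage transcripts, had the highest value, and without it the change against LPS was 1.69 (adjusted p = 9.35e-05). Atp2a1 was at 13158, 13239 and 12338 FPKM in control, 12679, 12536 and 12128 with LPS and 13590, 14379 and 12685 with LPS-MIC-1. Its log2 fold changes were -0.05 (adjusted p = 0.520) for LPS against control and 0.12 (95% interval 0.01 to 0.23, adjusted p = 0.0612) for LPS-MIC-1 against LPS. The second was 0.17 (adjusted p = 0.01002) without LPS-MIC-1 replicate 3. Atp2a2 amounted to 0.0154 ± 0.00252% of Atp2a1 in control, 0.0145 ± 0.00188% with LPS and 0.0505 ± 0.0129% with LPS-MIC-1. SERCA1 transcripts outnumbered those of SERCA2 by far in every library. The ratio of Sln to Atp2a1 went from 0.0392 ± 0.0110% in control to 0.0209 ± 0.00372% with LPS and 0.183 ± 0.0260% with LPS-MIC-1, with no overlap between groups.

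The calsequestrins were both lower in LPS-MIC-1 muscle, by different amounts. Casq2 was at 3.71, 3.51 and 3.48 FPKM in control, 3.86, 4.03 and 3.90 with LPS and 1.30, 0.989 and 0.993 with LPS-MIC-1. The log2 fold change of Casq2 was -1.77 (SE 0.116, adjusted p = 4.09e-06) against LPS and -1.63 (adjusted p = 6.40e-06) against control, and against LPS it was -1.71 (adjusted p = 2.72e-05) without LPS-MIC-1 replicate 3. Casq1 was at 2613, 2507 and 2511 FPKM in control, 2550, 2582 and 2500.2 with LPS and 2088, 2047 and 1858 with LPS-MIC-1. Every LPS-MIC-1 library was below the other 6, and the log2 fold change of -0.35 (SE 0.0434, adjusted p = 0.000188 against LPS and 0.000185 against control) was far under the fold threshold. Between LPS and control Casq1 differed by 0.00 on the log2 scale (95% interval -0.10 to 0.10). Casq2 amounted to 0.140 ± 0.00166% of Casq1 in control, 0.155 ± 0.00260% with LPS and 0.0546 ± 0.00698% with LPS-MIC-1, so that the ratio, too, separated the 3 groups.

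The release channel and its voltage sensor changed by less than the fold threshold in every comparison. Ryr1 was at 236, 229 and 231 FPKM in control, 196, 183 and 190 with LPS and 196, 201 and 189 with LPS-MIC-1. It was lower in both treated groups, by a log2 fold change of -0.29 (SE 0.0344, adjusted p = 0.00103) in LPS and -0.25 (adjusted p = 0.000347) in LPS-MIC-1, which overlapped each other. The difference between the treated groups was 0.04 (95% interval -0.04 to 0.12, adjusted p = 0.344). Cacna1s was at 136, 138 and 138 FPKM in control, 126, 122 and 128 with LPS and 141, 146 and 138 with LPS-MIC-1. LPS libraries were below all others, with log2 fold changes of -0.13 (adjusted p = 0.0199) between LPS and control and 0.18 (adjusted p = 0.00116) between the treated groups. LPS-MIC-1 and control overlapped (0.04, adjusted p = 0.248). Cacng1, the gamma subunit gene, was at 397 to 428 FPKM in control, 349 to 360 with LPS and 311 to 354 with LPS-MIC-1. The change against control was -0.22 (adjusted p = 0.0215) in LPS and -0.30 (adjusted p = 0.000885) in LPS-MIC-1 on the log2 scale, and it was -0.09 (adjusted p = 0.162) between the treated groups. Trdn was at 340 to 367 FPKM in control, 300.3 to 315 with LPS and 303 to 362 with LPS-MIC-1. None of its 3 comparisons passed the adjusted p, the lowest being 0.0667 for LPS against control (log2 fold change -0.20). After quantile normalization that change was -0.22 (adjusted p = 0.0444).

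Ratios within a library are free of any factor common to all its genes, though not of quantile normalization. Ryr1 over Cacna1s, release channel over voltage sensor, was 1.69 ± 0.0359 in control, 1.52 ± 0.0403 with LPS and 1.38 ± 0.00819 with LPS-MIC-1, with no overlap between any groups. Cacng1 over Cacna1s went from 2.99 ± 0.110 in control to 2.82 ± 0.0779 with LPS and 2.35 ± 0.0889 with LPS-MIC-1, and here control was above LPS in every library by a narrow margin, 2.88 against 2.87 at the closest. Casq1 over Ryr1 was highest in LPS, at 13.4 ± 0.591, against 10.96 ± 0.106 in control and 10.2 ± 0.416 in LPS-MIC-1. Atp2a1 over Ryr1 was 55.6 ± 2.15 in control, 65.6 ± 2.46 with LPS and 69.3 ± 2.26 with LPS-MIC-1, the last 2 overlapping. Trdn over Ryr1 overlapped between all groups, with means of 1.52, 1.62 and 1.69. These ratios are descriptions and were not tested.

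**Figure D3:**
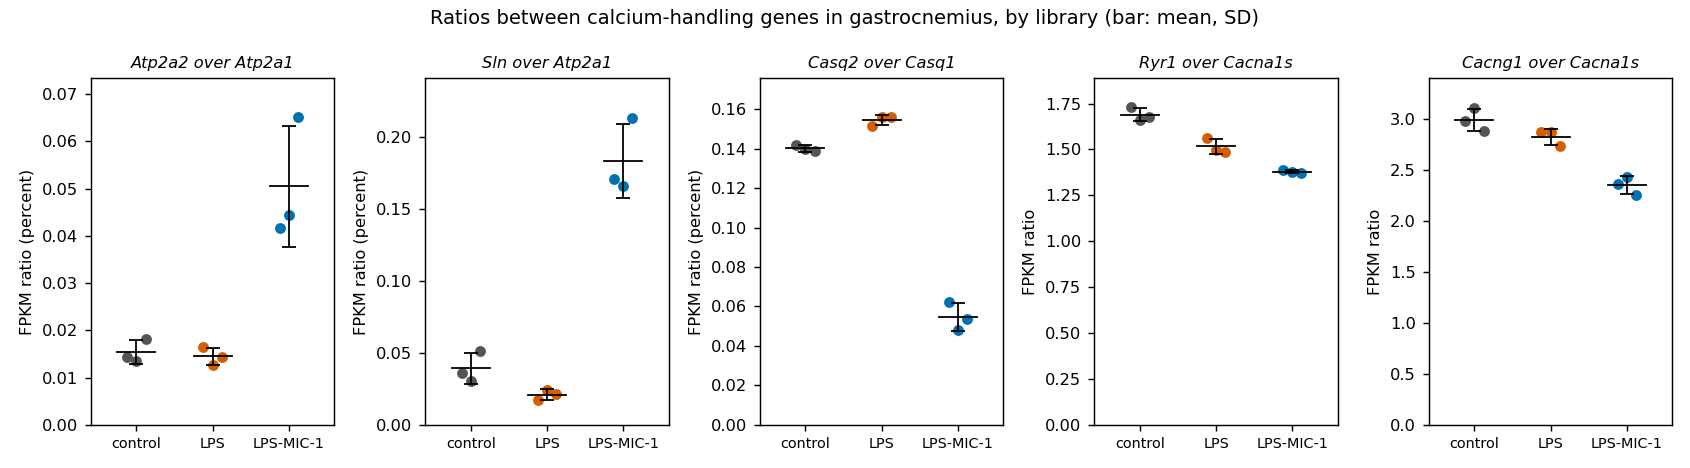
FPKM ratios between pairs of calcium-handling genes in each gastrocnemius library (points), with group mean and SD (bars, n = 3). The axes are linear from 0, and the first 3 panels are in percent. Atp2a2 over Atp2a1 and Sln over Atp2a1 were highest in the 3 LPS-MIC-1 libraries, Casq2 over Casq1 was lowest there, and Ryr1 over Cacna1s separated the 3 groups.

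Parvalbumin was lower in both treated groups on the deposited scale. Pvalb was at 27801, 28217 and 29292 FPKM in control, 23710, 24449 and 24169 with LPS and 22567, 23437 and 21080 with LPS-MIC-1. The groups did not overlap, and the log2 fold change was -0.24 (SE 0.0400, adjusted p = 0.00552) in LPS and -0.35 (adjusted p = 0.000118) in LPS-MIC-1 against control, and -0.11 (adjusted p = 0.0445) between the treated groups. The last was -0.07 (adjusted p = 0.0862) without LPS-MIC-1 replicate 3. After quantile normalization, which moved the median of all genes to -0.12 for LPS-MIC-1 against LPS and -0.10 against control, Pvalb turned to 0.24 (adjusted p = 9.68e-05) and 0.16 (adjusted p = 0.000760), and for LPS against control it was -0.07 (adjusted p = 0.108). The direction of Pvalb in LPS-MIC-1 muscle hence depends on the scaling. On the deposited scale Pvalb over Atp2a1 was 2.21 ± 0.146 in control, 1.94 ± 0.0624 with LPS and 1.65 ± 0.0181 with LPS-MIC-1. After quantile normalization the log2 fold change of Atp2a1 was 0.00 against LPS and -0.09 against control, so the direction of this ratio in LPS-MIC-1 turned as well. As a share of all FPKM, Pvalb was 3.87 ± 0.0712%, 3.35 ± 0.0368% and 3.39 ± 0.0914%.

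Markers of slow fibres moved with Sln and Atp2a2 and against Casq2. The share of all genes without overlap between groups was not counted, so the marker counts below are descriptions without a background. By the adjusted p alone, 56.5% of all genes differed between LPS-MIC-1 and LPS and 58.5% between LPS-MIC-1 and control, in either direction. Of 10 slow-fibre markers, 9 were higher in every LPS-MIC-1 library than in every LPS library, and the same number against control. Their summed FPKM was 36.4 to 40.4 in control, 37.9 to 42.1 with LPS and 331 to 351 with LPS-MIC-1, and no marker was at 0 in all libraries. The 3 most abundant in LPS-MIC-1 were Csrp3, a Z-disc protein of striated muscle, at 132 ± 4.33 FPKM against 2.11 ± 0.617 in LPS, Myl2 (ventricular and slow regulatory light chain) at 49.3 ± 4.30 against 0.357 ± 0.0881, and Myl3 (its essential partner) at 42.3 ± 2.68 against 15.5 ± 0.824. Myh7, the slow myosin heavy chain, went from 0.159 ± 0.0324 in control and 0.0962 ± 0.0903 in LPS to 10.3 ± 0.154 in LPS-MIC-1. The fast-fibre sum was 150354 to 156285 FPKM in control, 142977 to 144943 with LPS and 115672 to 122647 with LPS-MIC-1, where 6 of 10 fast markers were below every LPS library and 1 was above. Against control the fast list was split, with 4 markers below every control library and 3 above. Casq2, although a slow-muscle form, was lowest in the libraries with the most slow markers. Of 8 cardiac markers, 2 (Myh6 and Tnnt2) were above and 1 was below every LPS library in LPS-MIC-1. The last was Actc1, also made by immature skeletal muscle and the most abundant by far, with 2834 ± 59.9 FPKM in control, 4057 ± 53.2 with LPS and 1140 ± 58.7 with LPS-MIC-1. Of the other cardiac markers, Nppb and Myl7 were at 0 in all 9 libraries. Of 6 fibroblast markers, 5 were below every LPS and every control library in LPS-MIC-1, as Casq2 was, while Dcn was above. Their sum, mostly Dcn, was 116.6 to 123.5 FPKM in control, 122.9 to 124.5 with LPS and 133.5 to 152.0 with LPS-MIC-1. All 4 smooth muscle markers were below both other groups, with sums of 35.6 to 41.5, 30.0 to 31.1 and 17.9 to 20.3 FPKM. Other sums were higher in LPS-MIC-1, as Sln and Atp2a2 were. In the order control, LPS and LPS-MIC-1, Schwann markers had mean sums of 6.23, 3.03 and 11.6 FPKM. Adipocyte markers had 290, 231 and 335, and neutrophil markers 1.96, 1.79 and 12.9. Of these lists 2 of 4, 3 of 5 and 1 of 4 genes were above every LPS and every control library, and none was below. The part of fibre type or of these other cells in the changes of Sln, Atp2a2 and Casq2 was not tested.

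**Figure D4:**
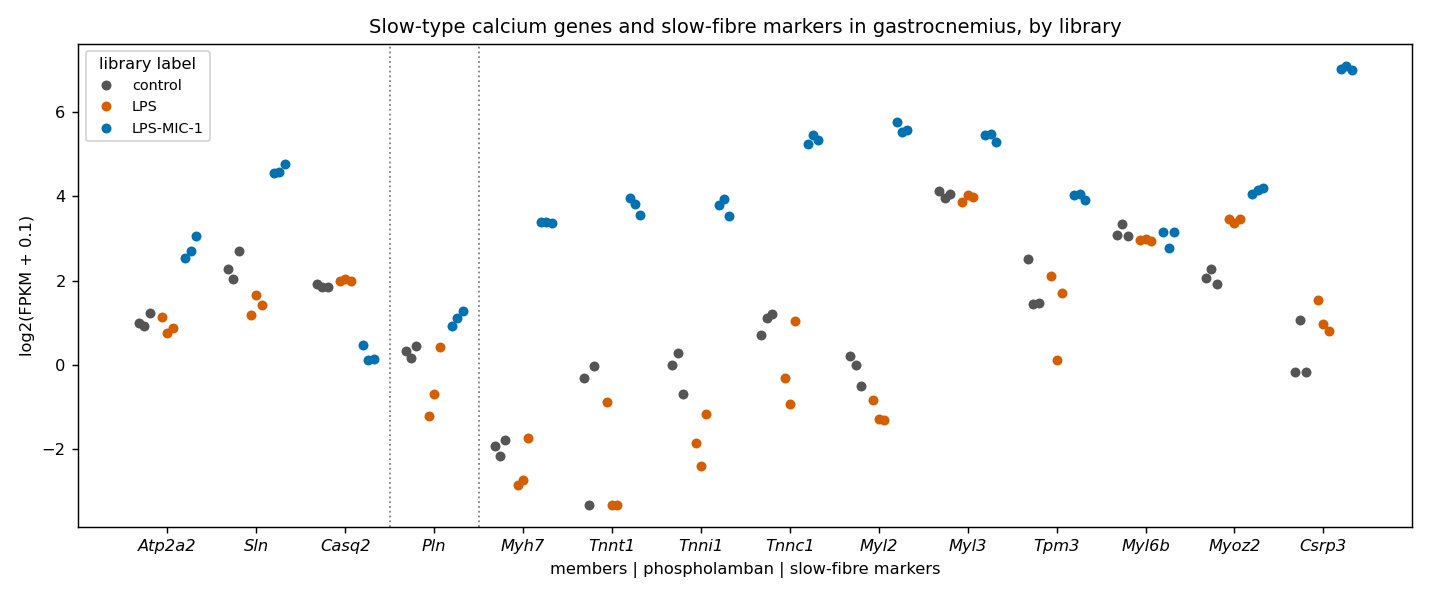
Log2(FPKM + 0.1) of Atp2a2, Sln and Casq2, of phospholamban (Pln) and of 10 slow-fibre markers in each gastrocnemius library. Points are libraries, coloured by label and grouped control, LPS, LPS-MIC-1 from left to right within a gene. All genes but Casq2 and Myl6b were highest in the 3 LPS-MIC-1 libraries, and Casq2 was lowest there.

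The genes whose log2 levels ran closest to a called member over the 9 muscle libraries were taken by Pearson's r, as a description with no p, since the libraries fall into 3 groups. For Sln they were Tpm4 (r = 0.999), Foxo4 (0.994) and H1f0 (0.994). Tpm4, a tropomyosin, had group means of 18.5, 14.1 and 33.5 FPKM in control, LPS and LPS-MIC-1. Atp2a2 ran closest to Slc1a5 (r = 0.992), an amino acid transporter, Rpl3 (0.991), a ribosomal protein, and Hnrnpf (0.990), an RNA-binding protein. Rpl3 had group means of 20.7, 18.1 and 70.9 FPKM. Casq2 ran closest to Col6a2 (r = 0.996), a collagen chain, Abca8a (0.996) and Mylpf (0.995), the fast regulatory light chain. Mylpf had 28155, 29059 and 18784 FPKM, so a fast-fibre marker was among the genes closest to Casq2.

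A wider list of 53 further genes of excitation-contraction coupling and calcium handling was examined in the same fits, of which 51 were found (some under older symbols) and 43 were tested in muscle. For LPS against control 1 was called higher and none lower, and by the adjusted p alone 7 were higher and 4 lower. The shares over all genes were 1.25% called and 15.7% by the adjusted p alone. For LPS-MIC-1 against LPS 1 was called higher and 3 lower, and against control 3 were called lower. By the adjusted p alone, 10 were higher and 18 lower than in LPS, and 11 higher and 20 lower than in control. The shares of all genes by that measure were 56.5% and 58.5%. Without LPS-MIC-1 replicate 3, 5 were called against control, and without control replicate 2 or LPS replicate 3, 2 were called for LPS against control. The called counts of 4 and 3 of 43 lie below or near the background of 15.1% and 15.5% of all genes called. The medians were 0.00, -0.10 and -0.01 on the log2 scale in the order LPS against control, LPS-MIC-1 against LPS and LPS-MIC-1 against control.

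Phospholamban (Pln), the pump regulator of slow and cardiac muscle, was the gene of this list called higher in LPS-MIC-1 than in LPS. It was at 1.16, 1.02 and 1.26 FPKM in control, 0.330, 0.519 and 1.25 with LPS and 1.81, 2.05 and 2.34 with LPS-MIC-1. The log2 fold change was 1.60 (SE 0.380, adjusted p = 0.00692) against LPS and 0.80 (adjusted p = 0.105) against control. The mean of Pln over the 9 libraries, 1.30 FPKM, passed the minimum of 1 for testing only through the LPS-MIC-1 libraries. These changes of Pln are therefore descriptions. LPS replicate 3 was apart from the other LPS libraries and level with control. Of the pumps, Atp2a3, the SERCA form of non-muscle cells, was lower in LPS-MIC-1 than in control, at 0.612 ± 0.366 against 1.74 ± 0.255 FPKM (-1.49, adjusted p = 0.00761), with LPS between at 1.08 ± 0.247. The mean of Atp2a3 over the 9 libraries, 1.15 FPKM, passed the same minimum only through the control libraries, so its change, too, is a description.

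The other called genes act around the release channel and the surface membrane. Calm2, which encodes the calcium sensor calmodulin that binds Ryr1, was at 170 ± 10.2 FPKM in control, 170 ± 3.74 with LPS and 29.3 ± 1.88 with LPS-MIC-1 (log2 fold change -2.53 against LPS, adjusted p = 7.18e-09). Reads could be split between Calm2 and similar genes in the counting, so its values are uncertain. Homer1, a scaffold that binds ryanodine receptors, was at 17.1 ± 0.581, 17.5 ± 0.436 and 7.86 ± 0.278 FPKM (-1.15 against LPS, adjusted p = 2.77e-07). Atp1b1, a sodium pump subunit, was the gene called higher in LPS than in control, at 28.5 ± 0.825 against 13.2 ± 0.889 FPKM (1.11, adjusted p = 2.07e-05), and it was at 10.7 ± 0.565 in LPS-MIC-1 (-1.40 against LPS, adjusted p = 4.02e-07). Every LPS library was thus above the other 6 for Atp1b1.

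In the C2C12 libraries, calling used the study's stricter adjusted p of 0.001 with the same fold. Only 6 members had a mean FPKM over 1 and were tested (Ryr1, Cacng1, Atp2a1, Atp2a2, Casq1 and Casq2). Of these, all but Atp2a2 passed that filter only through LPS-MIC-1 and so had to differ there, and their changes in LPS-MIC-1 are descriptions. For LPS against control none was called, and none at the adjusted p of 0.001 alone (Ryr1 was at an unadjusted p under 0.05). Of all 10877 genes tested 20.9% were called. Mean FPKM in control and LPS were 0.0314 and 0.115 for Cacng1, 0.277 and 0.0774 for Atp2a1, and 0.0197 and 0.0117 for Casq1. Casq2 was at 0 in both groups. At such levels these genes could hardly be called, so the lack of calls is not a result about them. For LPS-MIC-1 against LPS and against control the 5 members other than Atp2a2 were past the thresholds for a higher level. Atp2a2 was not called, and 49.9% and 43.3% of all genes were called in either direction. Without LPS-MIC-1 replicate 1 or replicate 2, 3 were called against control, with Atp2a1 past the adjusted p of 0.001 no longer and Casq1 under the filter. Since libraries labelled control and LPS carried macrophage and not myoblast markers, cell identity and treatment cannot be told apart in the comparisons with LPS-MIC-1.

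Atp2a2 was the abundant member in all C2C12 libraries, and its gene is expressed in most cell types. It was at 106, 102 and 102 FPKM in control, 112, 111 and 110 with LPS and 90.8, 81.2 and 83.6 with LPS-MIC-1. The groups did not overlap, with LPS-MIC-1 lowest, and the log2 fold change of -0.38 (SE 0.0471, adjusted p = 8.20e-05) against LPS and -0.28 (adjusted p = 0.000662) against control was under the fold threshold. Ryr1 was at 1.04, 1.05 and 1.01 FPKM in control, 0.510, 0.544 and 0.560 with LPS and 3.09, 3.02 and 2.07 with LPS-MIC-1. Every LPS-MIC-1 library was above the other 6, by 2.13 against LPS and 1.30 against control on the log2 scale, and the mean passed the filter only through these libraries. Between LPS and control its change of -0.83 (SE 0.166, adjusted p = 0.00252) was not called. A low level of Ryr1 was thus present in libraries with almost no myoblast markers.

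The remaining members were at or near 0 in the libraries labelled control and LPS, except for Pvalb and Atp2a1 in 1 control library. Cacng1 was at 0, 0 and 0.0943 FPKM in control, 0, 0.0575 and 0.286 with LPS and 256, 264 and 300 with LPS-MIC-1, ranked 407th of all genes by its mean there. Its partner Cacna1s did not exceed 0.0289 FPKM in control or LPS and was at 0.901, 1.07 and 0.738 in LPS-MIC-1. The channel's gamma subunit transcript was therefore far above that of its pore subunit in LPS-MIC-1 cells, whereas in muscle they differed by the small ratio given above. Casq2 was listed at 0 in all 6 control and LPS libraries and was at 6.29, 9.68 and 6.76 FPKM in LPS-MIC-1. Casq1 was above 0 in 1 library of each of the other groups (0.0592 and 0.0350) and was at 5.03, 3.94 and 2.67 in LPS-MIC-1. The slow and cardiac form of calsequestrin was thus above the fast form in every LPS-MIC-1 library of these cells, the reverse of the order in muscle. Trdn, too, was listed at 0 in those 6 libraries, with 0.819, 0.888 and 0.521 FPKM in LPS-MIC-1. Sln was listed at 0 in all 9 C2C12 libraries.

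Atp2a1 and Pvalb had single libraries that stood apart. Atp2a1 was at 0.800, 0.0299 and 0 FPKM in control, 0.0537, 0.0359 and 0.143 with LPS and 9.65, 8.48 and 7.48 with LPS-MIC-1. The log2 fold change of Atp2a1 against control was 5.24 (SE 0.750), and 6.24 without control replicate 1. Pvalb was at 1.42 FPKM in control replicate 1 and 0 in the other 5 control and LPS libraries, and at 0.356, 0.0720 and 2.33 in LPS-MIC-1. Control replicate 1 also held the fast-fibre transcripts Myl1 (1.68 FPKM, against 0 in control replicates 2 and 3) and Tnnc2 (1.76, against 0.289 and 0.0951), and their part in its Pvalb and Atp2a1 values was not tested.

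**Figure D5:**
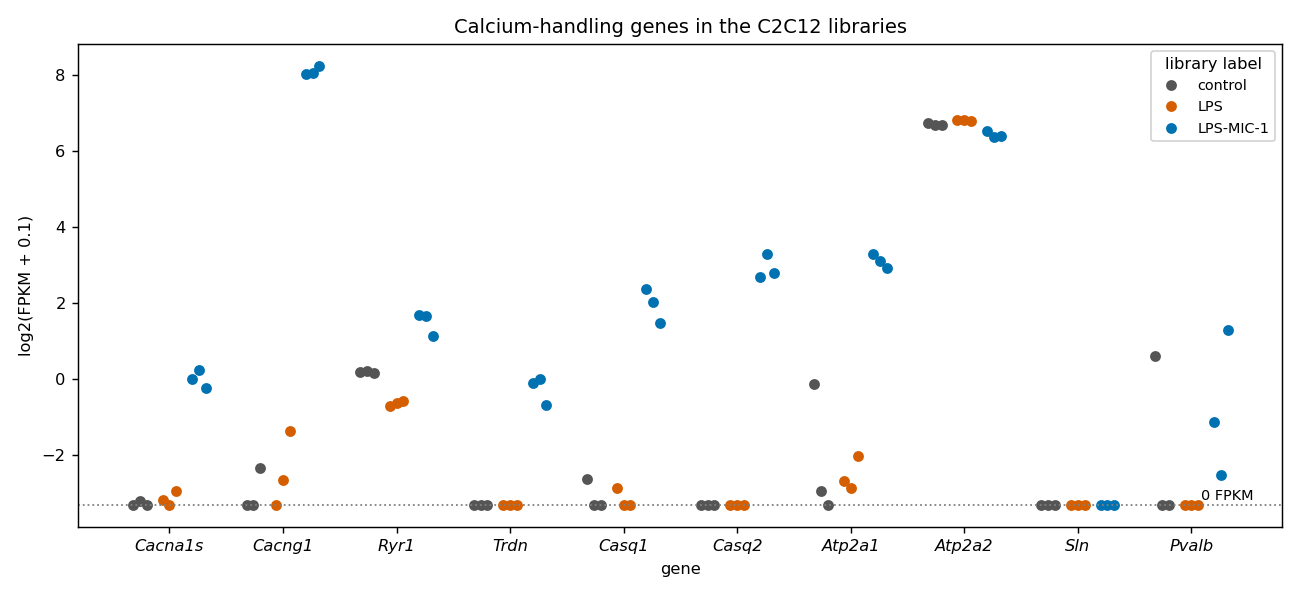
Log2(FPKM + 0.1) of the 10 calcium-handling genes in each library labelled C2C12, with points coloured by label and grouped control, LPS, LPS-MIC-1 from left to right within a gene. The dotted line marks 0 FPKM. Atp2a2 was high in all 9 libraries and Ryr1 was above 0 in all 9, Sln stayed on the line, and the other genes left the region near the line mainly in the 3 LPS-MIC-1 libraries.

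Within the LPS-MIC-1 cells, the proportions of the members differed from those in muscle. Casq1 over Ryr1 was 1.41 ± 0.191, Atp2a1 over Ryr1 was 3.18 ± 0.404 and Trdn over Ryr1 was 0.270 ± 0.0218. In LPS-MIC-1 muscle the same ratios were 10.2 ± 0.416, 69.3 ± 2.26 and 1.69 ± 0.170. Each ratio was taken within a library, because the tables of cells and muscle were normalized separately, and the difference was not tested.

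Of the 51 further pathway genes, 37 were tested in C2C12. For LPS against control 4 were called higher and none lower. For LPS-MIC-1 against LPS 10 were higher and 3 lower, and against control 12 were higher and 6 lower. The counts of 4, 13 and 18 of 37 are below or near the shares of all genes given above, and the medians were 0.07, 0.35 and 0.65 on the log2 scale, beside 0.00, -0.05 and -0.06 over all genes.

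For LPS against control the largest changes included those of the called genes. Hrc, a calcium-binding protein of the sarcoplasmic reticulum, was at 0.116 ± 0.0243 FPKM in control and 3.84 ± 0.471 in LPS (4.18, adjusted p = 3.59e-07). Camk2d, a calcium-calmodulin dependent kinase, was at 4.46 ± 0.219 and 13.6 ± 0.283 (1.59, adjusted p = 1.52e-06). Mtm1, the myotubularin phosphatase, went from 2.17 ± 0.123 to 6.36 ± 0.196 (1.51, adjusted p = 0.000135), and Orai1, the pore of store-operated calcium entry, from 23.3 ± 2.15 to 49.3 ± 0.605 (1.09, adjusted p = 8.81e-05). Each of these 4 had 3 LPS libraries above every control library. Ppp3cb, a calcineurin catalytic subunit, had the second largest change and was not called, with 13.4, 12.4 and 12.1 FPKM in control and 0, 2.46 and 1.91 with LPS (-3.99, adjusted p = 0.0178).

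The largest changes of LPS-MIC-1 were in genes of the muscle junction and surface membrane that were at or near 0 in the other groups. Jsrp1, which binds the voltage sensor and calsequestrin, was at 91.2 ± 11.2 FPKM in LPS-MIC-1 against 0.406 ± 0.376 in LPS and 0.213 ± 0.140 in control. Cacna2d1, an auxiliary subunit of the voltage sensor, was at 12.1 ± 0.747, Atp1b1 at 10.6 ± 1.40, and Jph2, which holds the sarcoplasmic reticulum to the transverse tubule, at 6.81 ± 2.25 FPKM, with Jph2 listed at 0 in all 6 other libraries. Atp2a3 went the other way, from 36.0 ± 0.715 in control and 31.3 ± 1.75 in LPS to 0.734 ± 0.208 in LPS-MIC-1. The order of the SERCA genes in control and LPS libraries was therefore Atp2a2, Atp2a3 and then Atp2a1, and in LPS-MIC-1 it was Atp2a2, Atp2a1 and Atp2a3, with no overlap between neighbours in either.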

How the data were processed

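RNA-seq of 18 mouse libraries was analysed, 9 of C2C12 cells and 9 of gastrocnemius, grouped by their sample labels. The labels give MIC-1 at 10 μM in cells, and the study's text gives a lower concentration for the transcriptome. Pseudoalignment with kallisto and gene summaries with tximport were made by the authors, who deposited FPKM for each gene in each library. The submitters' processing notes name mm9, of which no positions are used. How the authors' settings divide reads between paralogs (the SERCA and calmodulin genes) could move single values. The authors' 6 tables of DESeq2 results hold fold changes and p-values and were not used, nor were 9 unnamed per-sample columns of the muscle table. Older symbols were matched through RefSeq's gene table.

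For each experiment a separate limma model (version 3.58.1, R 4.3.3) of group means was fitted to log2(FPKM + 0.1) of all 9 libraries, with a trended eBayes prior, for genes averaging more than 1 FPKM. Tests were 2-sided, with Benjamini-Hochberg adjustment across every gene tested. Called genes had an adjusted p under 0.001 (C2C12) or 0.05 (muscle) and an absolute log2 fold change over 1, after the study's methods. Intervals are 95% confidence intervals of the fit. The study divided more mice than there are muscle libraries among the groups, and the sources do not tie each library to an animal or a culture, so p-values measure only the spread between these libraries, which may be technical. No replicate files were identical, and Pearson's r across genes between replicates was 0.936 to 0.989. Relative depth came from the steps between FPKM values under 0.1 (tolerance 0.03 on the log2 scale), and depth per library is otherwise unknown, so no counting interval is given.

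The members, gene lists and tests were chosen with earlier results of these data known. All members are named. Of the other pathway genes, those called in muscle (at most 8 per comparison) and the 4 with the largest change per comparison in C2C12, called or not, are named, as are the 3 genes most correlated with each called member and the 3 most abundant markers of a list. Myh7, Actc1, Myl1, Tnnc2, Nppb, Myl7, Myf5, Msc, Vgll2, Myh1, Myh6, Tnnt2, Dcn, Orai1 and the cell line values of Atp2a3 were added after their values were seen.

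Alternatives tried were a replicate block, each library left out in turn, a fit of only the 6 libraries in a comparison, an untrended eBayes prior, quantile normalization, scaling by median ratios, an FPKM minimum of 5 or none, and a pseudocount of 0.01 or 1. The fits were tested on simulated data. Plots used matplotlib 3.10.9 under Python 3.11.15.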

Additional observations from a re-analysis of the deposited data

Results flagged for a closer look

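Some of the 9 genes above 0 in both experiments moved one way in every LPS-MIC-1 library of C2C12 and the opposite way in muscle, without overlap with the group compared. There were 4 such genes against LPS (Atp2a2, Casq1, Casq2 and Pvalb) and 5 against control (Ryr1, Cacng1, Atp2a2, Casq1 and Casq2), where 22.8% and 22.9% of 16115 genes did the same. The difference between the experiments was not tested, the tables were normalized separately, and the C2C12 libraries labelled control and LPS held few myoblast transcripts.

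Atp2a2 was lower in LPS-MIC-1 cells (85.2 FPKM against 111 in LPS and 103 in control) and higher in LPS-MIC-1 muscle (6.78 against 1.80 and 1.98). Casq2 was at 7.58 FPKM in LPS-MIC-1 cells against 0 in both other groups, and in muscle at 1.09 against 3.93 in LPS and 3.57 in control. Casq1 was at 3.88 FPKM in LPS-MIC-1 cells against 0.0117 in LPS and 0.0197 in control, and in muscle at 1998 against 2544 in each.

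Against control, Cacng1 was at 273 FPKM in LPS-MIC-1 cells beside 0.0314, and at 333 in LPS-MIC-1 muscle beside 411. Ryr1 was at 2.73 FPKM beside 1.03 in cells and at 195 beside 232 in muscle. Against LPS, Pvalb was at 0.921 FPKM beside 0 in cells and at 22361 beside 24109 in muscle, where its direction turns under quantile normalization.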

How the results depend on the processing

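Of the member fold changes, 811 of 835 values under an alternative kept their direction and their side of the threshold. In muscle, Sln, Atp2a2 and Casq2 were called in LPS-MIC-1 in every setting tried except a mean FPKM over 5, which left 1 called gene, Sln, in each comparison because Atp2a2 and Casq2 were no longer tested. The counts of members without 1 library were 3 throughout, and for LPS against control 0 to 1. Pathway genes called without 1 library were 1 to 2 for LPS against control and 3 to 5 for LPS-MIC-1 against control. Quantile normalization reversed Pvalb (0.24 against LPS and 0.16 against control), and values near 0 for Cacna1s (-0.0107) and Atp2a1 (-0.0939) against control and Casq1 for LPS against control (-0.0232). Without 1 library the last ranged from -0.0103 to 0.0199, and it was below 0 in 4 cases.

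In C2C12 a mean FPKM over 5 left 1 called member against LPS and 1 against control, and 2, 7 and 10 pathway genes for LPS against control, LPS-MIC-1 against LPS and LPS-MIC-1 against control, since fewer genes were tested. Quantile normalization called 1 member, Ryr1, for LPS against control (-1.18). Against control, 3 members were called with only the 6 libraries compared, and 3 to 5 without 1 library, 3 without LPS-MIC-1 replicate 1 or replicate 2, where Casq1 fell under the filter. Atp2a1 lost that call with a pseudocount of 0.01 (which also ended its call against LPS), with only 6 libraries, and without control replicate 2 or any LPS-MIC-1 library, and Ryr1 with a pseudocount of 1 (0.86) or with only 6 libraries (adjusted p = 0.00107). For LPS against control Atp2a1 turned to 0.16 with a pseudocount of 0.01 and ranged from -0.99 to 0.59 without 1 library, and Casq1 from -0.22 to 0.14, both highest without control replicate 1. Without it, the mean of control rests on 2 libraries at or near 0.

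Same-numbered libraries correlated in their deviations by -0.0757 to 0.0823, and 14 of 36 were closest to their own number (6 of 6 for muscle LPS-MIC-1 against LPS, with correlations of 0.0282 to 0.0823), so the numbers were not taken to pair the libraries. With the number as a replicate block, 0, 3 and 3 members were called in muscle and 0, 5 and 5 in C2C12, no call of a member changed (by the adjusted p alone, muscle Cacna1s for LPS against control went to 0.0526, and Pvalb and Atp2a1 for LPS-MIC-1 against LPS to 0.0669 and 0.0149), and 16 in place of 18 pathway genes were called for LPS-MIC-1 against control in C2C12. Low values limit the rest, since depth is unknown.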
